A study of Mus musculus with 4 samples.

Results

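The genes described here are the machinery with which a cell makes cholesterol and fatty acids: 34 genes, chosen by symbol from the 16360 symbols of the count table and grouped here by role. They are 5 genes of the SREBP system, 7 of the mevalonate arm, 11 from squalene to cholesterol, 2 of sterol transport and esterification, 3 of fatty acid synthesis and 6 of elongation and desaturation. All 34 were in the table and all 34 passed the filter on low counts. They were measured in recruited alveolar macrophages, cells that descend from blood monocytes and enter the alveoli of an injured lung. The gate of the cell sorter took high CD64, low Siglec-F and high CD11b. The mice were males of 8 to 10 weeks on a strain labelled CD57/Bl6, either WT or homozygous for R213G, an arginine-to-glycine variant of extracellular superoxide dismutase (EC-SOD, encoded by Sod3). Both genotypes had received intratracheal bleomycin 7 days before (100 µl of a 1 U/ml solution), and no group without bleomycin was analysed here. There were 2 poly(A) RNA libraries per genotype, 4 in all. The labels do not say whether a library came from 1 mouse or from several, and the p-values below rest on the spread between the deposited libraries alone.

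Cholesterol and fatty acid synthesis are switched on together by the sterol regulatory element binding proteins (SREBPs), membrane-bound transcription factors held in the endoplasmic reticulum. When sterols are scarce, the escort protein SCAP carries them to the Golgi, where proteases release the part that enters the nucleus. When sterols are plentiful, INSIG proteins hold SCAP back. Macrophages in the lung take up surfactant and the membranes of dying cells, so they receive lipid from outside and can store cholesterol as esters besides making it.

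Total counts ranged from 33488569 to 35176210 per library, and 13584 genes were detected in R213G replicate 1 against 14598 to 15194 in the other 3 libraries. Counts of Sod3, the altered gene, were 4 in R213G replicate 1, 47 in R213G replicate 2 and 47 and 96 in the WT libraries; the variant alters the protein, so this level does not check the genotype. Of the defining markers of the sort, Fcgr1 (which encodes CD64) and Itgam (CD11b) stood at 243 to 261 CPM and 721 to 886 CPM over the 4 libraries, and Siglecf stood at 10.8 to 12.1 CPM. CPM are counts per 1e6 of the normalised library size. Of the 12 resident alveolar macrophage markers, Siglecf among them, 0 had an adjusted p under 0.05 (edgeR) and 8 fold changes were positive. Atp6v0d2 was the highest, at 293 to 441 CPM over the libraries. Chil3 was at 134 and 504 CPM in WT, and Marco at 7.94 and 23.6 CPM in R213G. Pparg was higher in R213G without overlap (log2 fold change 0.40), as were 13.7% of all tested genes. Markers of other cells ranged from 0 to well counted. Of 12 listed type 2 epithelial markers, 5 passed the filter and summed to 430.4 and 315.5 CPM in R213G and 403 and 340.5 CPM in WT. Most of that was Napsa (4324 to 8192 counts over the 4 libraries) and Abca3 (5326 to 5977), while the surfactant gene Sftpc had 0 to 8 counts and Sftpb 14 to 76. Of 8 neutrophil markers, 4 passed, led by Mmp8 (2415 to 3352 counts), Csf3r (1546 to 2462) and S100a8 (366 to 674), and S100a9 had 31 counts in R213G replicate 1 and 0 in the others. Csf3r did not overlap between the genotypes and was lower in R213G (log2 fold change -0.50, unadjusted p = 0.0110, edgeR). Mmp8 was also lower without overlap (-0.31), as were 15.2% of all tested genes. Cxcr2 (-0.12) and S100a8, which went the other way (0.39), overlapped. Of 8 genes listed for fibroblasts, Plin2 and Gsn passed, at 951 to 1363 CPM and 423 to 499 CPM over the 4 libraries. Col1a1 had at most 1 count in a library, and Col1a2, Col3a1, Pdgfra, Dcn and Tcf21 were not in the table. The levels of Plin2 and Gsn are therefore not read as a sign of fibroblasts. The part of such cells in the synthesis genes was not tested. In bulk RNA, fewer cells of a type and less RNA per cell cannot be told apart.

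Levels were compared between genes as CPM per kilobase of annotated exon, averaged over the 4 libraries ± SD (n = 4 libraries of both genotypes). The gene of highest level was Acly (66.9 ± 3.72), which makes cytosolic acetyl-CoA from citrate and so feeds both pathways. Soat1, which esterifies cholesterol for storage, followed at 59.5 ± 3.01. Acly was above Soat1 within each of the 4 libraries, though the ranges of these 2 genes over the libraries overlapped. Below them came the mevalonate decarboxylase gene Mvd at 40.4 ± 3.71. Soat1 lay above Mvd, and Mvd above the next gene, in all 4 libraries and without overlap of their ranges.

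Srebf2, which encodes the SREBP of the sterol branch, came next at 30.6 ± 3.01. After it came the sterol isomerase gene Ebp (29.5 ± 3.48) and Hmgcs1 (28.1 ± 1.68), whose enzyme joins acetyl-CoA units at the start of the mevalonate arm. Neighbours from Srebf2 down to the fatty acid synthase gene Fasn (14.4 ± 0.745) overlapped in their ranges over the 4 libraries. Within each library Pmvk was above Insig1. The order of the other neighbours changed between libraries and is not resolved. Fads1 (25.4 ± 1.90), Elovl5 (24.3 ± 4.61), Scd2 (23.3 ± 3.62), Cyp51 (20.0 ± 3.10), Srebf1 (18.8 ± 0.361), Pmvk (18.6 ± 3.15) and Insig1 (15.2 ± 1.15) filled this range.

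At the lower end stood Lss (2.47 ± 0.643), Tm7sf2 (2.28 ± 0.670), Elovl6 (1.86 ± 0.440), Acaca (1.56 ± 0.0991), Scd1 (1.06 ± 0.385), Idi1 (0.875 ± 0.212) and Fdps (0.799 ± 0.163). The low values of several of these genes are uncertain, because other annotated genes share their sequence. Of the 50-base stretches in the protein-coding transcripts of Fdps, 64.1% also occur in transcripts of 8 other genes. The share was 49.1% for Acaca (with Gm5182), 40.7% for Acat2 (with Acat3), 20.0% for Idi1, 19.5% for Tm7sf2 (with its neighbour Vps51) and 10.9% for Fdft1. It was at most 4.61% in each of the other 28 genes. By position, exon bases also lay within exons of other genes on either strand. Their share was 26.7% for Fdps, 18.3% for Fdft1, 13.2% for Scap, 12.1% for Hmgcs1 and 12.1% for Tm7sf2, and at most 9.22% elsewhere. How the counting treated reads that fit several genes is not given in the sources used here, and its part in these levels was not tested. The exon length joins all annotated transcripts of a gene, at 10787 bases for Lss and 17074 for Acaca. Their protein-coding transcripts hold 4868 and 10211 distinct 50-base stretches. The part of the chosen length in the order of the genes was not tested.

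**Figure D1:**
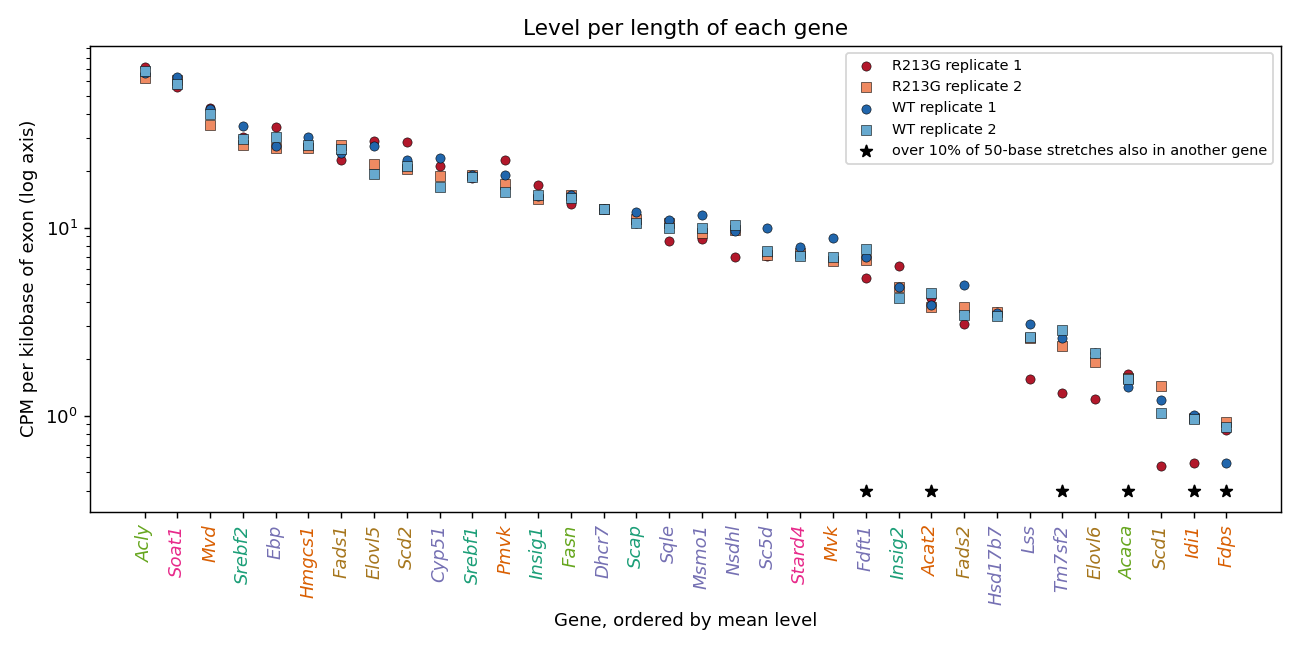
CPM per kilobase of exon (log axis) for the 34 genes, ordered by mean level, with 1 point per library and gene names coloured by role. Acly and Soat1 lead at 66.9 and 59.5, and Idi1 and Fdps end the order at 0.875 and 0.799; stars mark the 6 genes with more than 10% of their 50-base stretches in another gene.

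Levels of closely related genes were uneven within each library. Scd1 and Scd2 encode stearoyl-CoA desaturases, which put the first double bond into saturated fatty acids, and lie near each other on chromosome 19 (Scd1 from 44394455 to 44407879, minus strand; Scd2 from 44293674 to 44306864, plus strand; GRCm38). Per length, Scd2 exceeded Scd1 by 53.0-fold in R213G replicate 1, 14.3-fold in R213G replicate 2, 18.9-fold in WT replicate 1 and 20.4-fold in WT replicate 2. The wide ratio in R213G replicate 1 came with the fewest Scd1 counts, 90 there against 174 to 246 in the other libraries. Elovl5, which lengthens polyunsaturated chains, exceeded Elovl6, which lengthens saturated ones, by 23.8-fold and 11.2-fold in R213G and by 12.7-fold and 8.90-fold in WT.

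The front-end desaturase genes Fads1 and Fads2 also lie side by side on chromosome 19, and Fads1 exceeded Fads2 by 5.03-fold to 7.62-fold over the 4 libraries. Insig1 exceeded Insig2 by 2.72-fold to 3.55-fold, and Srebf2 exceeded Srebf1 by 1.45-fold to 1.82-fold. For each of these 5 pairs, the same gene was higher in all 4 libraries.

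The promoters were searched for 4 motifs known from SREBP target genes. Sequence itself was not used to choose the genes, but they come from pathways that SREBPs switch on. Shares above those of other genes are therefore no independent evidence. Promoter sequences of 300 bases (250 before to 50 after the start, RefSeq, GRCm38.p6) matched 27 of the 34 genes by symbol; Scd1, Scd2, Fads1, Fdft1, Fdps, Sqle and Stard4 had no entry. On either strand, CCAAT, the box bound by NF-Y, was in at least 1 promoter of 22 of the 27 genes (81.5%), against 41.1% of all 27025 genes with an entry and 43.0% of the 9755 tested genes with one. GGGCGG, bound by Sp1-type factors, was in 22 of 27 (81.5%), against 38.2% of all genes and 67.6% of tested genes. The E-box CACGTG was in 6 of 27 (22.2%), against 8.09% and 12.0%. The sterol regulatory element type TCACNCCAC was in 1 of 27 (3.70%), Hmgcs1, against 1.44% and 1.35%. A gene with several promoters counted once.

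Of these promoters, 6 windows of 100 bases are shown because they carry the motifs in genes from 4 steps of the system: the sterol element in Hmgcs1, boxes in the sterol sensor gene Insig1 and in Hsd17b7, Mvk and Mvd of the sterol pathway, and in Fasn. Each is written 5′ to 3′ on the strand of its gene, and all lie before the annotated start. Capitals mark matches: TCACCCCAC for the sterol element, CACGTG for the E-box, CCAAT or its reverse complement ATTGG for the NF-Y box, and GGGCGG or its reverse complement CCGCCC for the Sp1 box. In Fasn a CCAAT and its reverse complement overlap and are written as 1 run of capitals.
Hmgcs1, chr13:119690169-119690268, plus strand: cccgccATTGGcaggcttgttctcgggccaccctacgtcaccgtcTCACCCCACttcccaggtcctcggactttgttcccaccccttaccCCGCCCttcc
Insig1, chr5:28071162-28071261, plus strand: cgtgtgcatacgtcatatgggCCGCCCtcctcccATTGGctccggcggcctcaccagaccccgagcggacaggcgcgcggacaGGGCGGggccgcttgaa
Hsd17b7, chr1:169969294-169969393, minus strand: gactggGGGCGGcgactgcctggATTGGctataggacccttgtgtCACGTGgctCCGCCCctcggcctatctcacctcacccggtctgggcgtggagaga
Mvk, chr5:114444169-114444268, plus strand: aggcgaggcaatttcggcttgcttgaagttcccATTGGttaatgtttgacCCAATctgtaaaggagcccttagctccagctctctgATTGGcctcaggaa
Mvd, chr8:122443423-122443522, minus strand: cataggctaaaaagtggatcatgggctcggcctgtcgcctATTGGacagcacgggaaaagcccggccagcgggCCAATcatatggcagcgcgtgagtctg
Fasn, chr11:120824552-120824651, minus strand: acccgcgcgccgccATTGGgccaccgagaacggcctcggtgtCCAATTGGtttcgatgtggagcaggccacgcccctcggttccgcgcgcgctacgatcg
The Mvk window holds 3 matches to the box and the Fasn window 3, and the Mvd window 2. A match describes letters only, and binding was not measured here.

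The comparison asked whether the R213G variant went with another level of these genes. By edgeR's quasi-likelihood test with Benjamini-Hochberg adjustment at 0.05, 0 of 13575 tested genes passed (0.00%), and so 0 of the 34 synthesis genes did. The unadjusted p was under 0.05 for 302 genes of the whole table (2.22%; 0.936% higher and 1.29% lower in R213G) and for 0 of the 34. DESeq2 and limma voom, run as other tests, also called 0 of the 34, with 0 at an unadjusted p under 0.05 in each. Log2 fold changes are given as R213G minus WT with their SE. They were positive for 11 of the 34 (32.4%) and negative for 23, beside 49.1% positive over all tested genes. The median of the 34 was -0.053, beside -0.006 over all tested genes. The 95% interval of the fold change stayed within a factor of 2 for 28 of the 34 genes. It reached further for Idi1, Fdps, Lss, Tm7sf2, Elovl6 and Scd1. A value that misses the threshold does not show that the genotypes are alike.

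**Figure D2:**
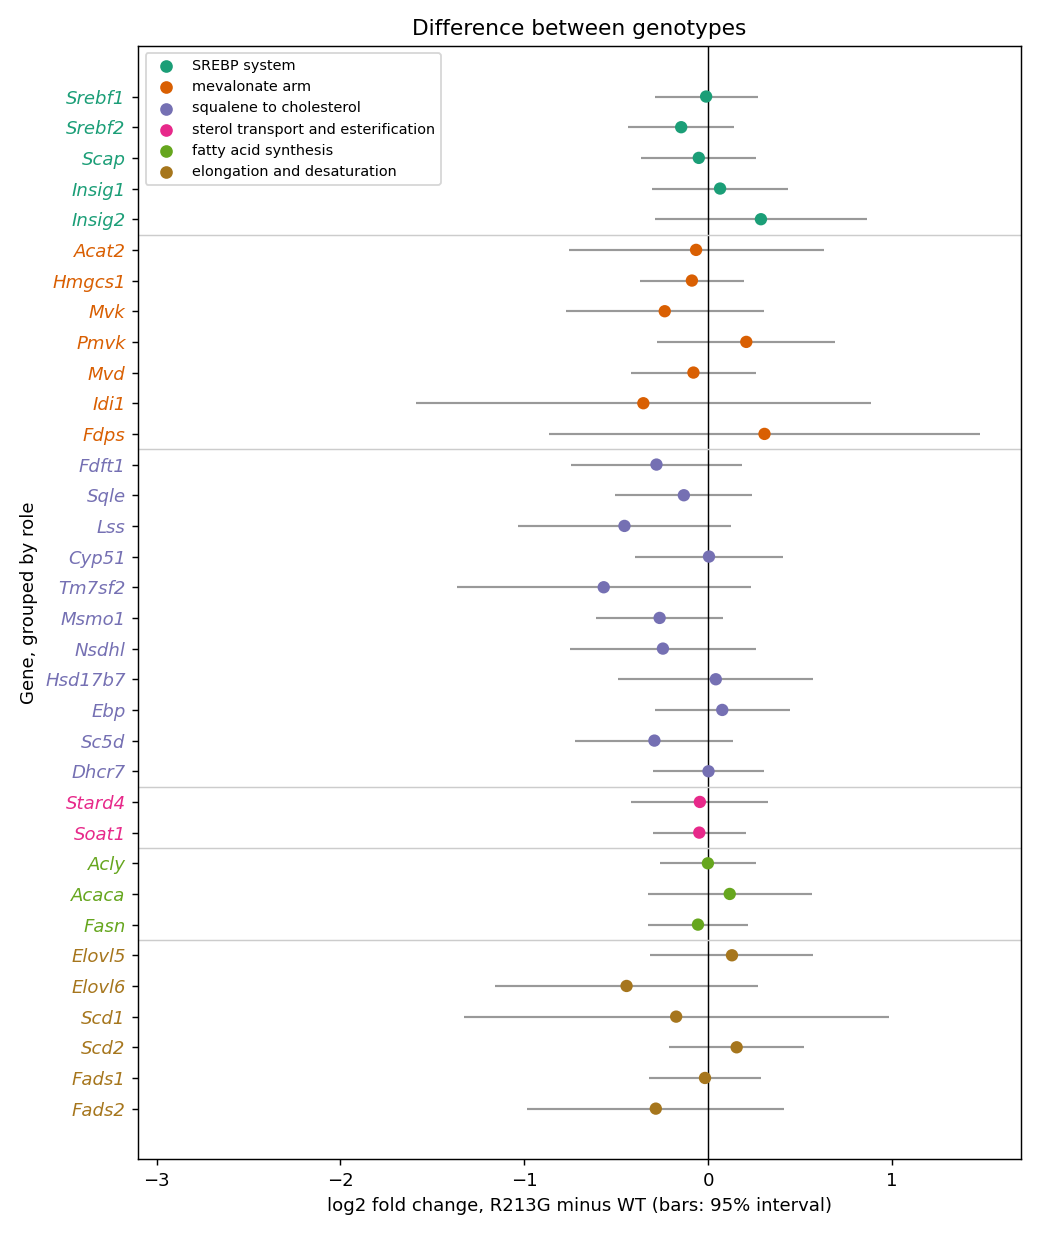
Log2 fold change of each gene, R213G minus WT, with its 95% interval (horizontal bars), grouped by role. Every interval includes 0; the estimates run from -0.57 for Tm7sf2 to 0.31 for Fdps.

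In the SREBP system, Srebf1, which encodes the SREBP of the fatty acid branch, was level across the libraries. It was at 104 CPM in R213G replicate 1 and 108 CPM in R213G replicate 2, and at 108 and 105 CPM in WT (log2 fold change -0.01 ± 0.12, 95% interval -0.29 to 0.27). Srebf2 was at 219 and 198 CPM in R213G and 249 and 212 CPM in WT (-0.15 ± 0.13). WT replicate 1 was the highest library, and the groups overlapped. With WT replicate 1 left out the log2 fold change of Srebf2 was -0.026, and with WT replicate 2 left out it was -0.26. Scap was at 79.2 and 83.2 CPM in R213G and 89.8 and 78.4 CPM in WT (-0.05 ± 0.14). Insig1, itself a target of the SREBPs, was at 52.3 and 44.1 CPM in R213G and 45.8 and 46.4 CPM in WT (0.07 ± 0.16). The groups overlapped for both.

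Insig2, whose transcription is less tied to sterols, was at 21.6 and 16.8 CPM in R213G and 16.8 and 14.7 CPM in WT (0.29 ± 0.26, unadjusted p = 0.292). Its libraries did not overlap, but R213G replicate 2 and WT replicate 1 were equal to 3 digits. With R213G replicate 1 left out the log2 fold change was 0.10, and with R213G replicate 2 left out it was 0.45. Non-overlap in either direction was seen for 10 of the 34 genes (29.4%) and for 28.9% of all tested genes. The R213G libraries were the higher ones for 3 of the 34 (8.82%) and for 13.7% of all tested genes. The other 2 were Hsd17b7 and Acaca.

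The mevalonate arm turns acetyl-CoA into the isoprenoid units of sterols. Acat2, the thiolase that joins the first pair of acetyl groups, was at 10.8 and 9.60 CPM in R213G and 9.90 and 11.4 CPM in WT (-0.07 ± 0.31). Hmgcs1 was at 128 and 122 CPM in R213G and 140.0 and 126 CPM in WT (-0.09 ± 0.13). The groups overlapped for both, and WT replicate 1 was the highest for Hmgcs1.

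The kinase gene Mvk lies on the plus strand of chromosome 5 from 114444269 to 114460591 (GRCm38). It was at 18.2 and 17.7 CPM in R213G and 23.6 and 18.7 CPM in WT (-0.24 ± 0.24, unadjusted p = 0.351). Its groups did not overlap, and the gap between the WT libraries was wider than that between WT replicate 2 and R213G. Without WT replicate 1 the log2 fold change was -0.06. The second kinase gene, Pmvk, was at 39.0 and 29.1 CPM in R213G and 32.5 and 26.6 CPM in WT (0.21 ± 0.22). Mvd was at 80.6 and 65.6 CPM in R213G and 79.9 and 74.6 CPM in WT (-0.08 ± 0.15). For Pmvk and Mvd, R213G replicate 1 was the highest library and the groups overlapped.

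The isomerase gene Idi1 and the farnesyl diphosphate synthase gene Fdps were the least counted of the arm. Idi1 had 67 counts in R213G replicate 1 against 119 in R213G replicate 2, and 117 and 115 in WT (-0.35 ± 0.55). R213G replicate 1 was the single low library, and the log2 fold change of Idi1 was -0.0093 with it left out and -0.81 with R213G replicate 2 left out. Fdps had 78 counts in WT replicate 1 against 125 in WT replicate 2, and 121 and 136 in R213G (0.31 ± 0.52), with WT replicate 1 as the single low one. The log2 fold change of Fdps was 0.033 with that library left out and 0.66 with WT replicate 2 left out. Both share sequence with other genes, as given above, so these counts may cover only part of their reads.

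From squalene to cholesterol, 7 of 11 genes had negative fold changes and the median was -0.25, with 0 of 11 passing. In 5 of them, Lss, Tm7sf2, Msmo1, Sc5d and Fdft1, the R213G libraries lay below the WT libraries. Over all 34 genes there were 7 such (20.6%), with Mvk and Elovl6 as the others, against 15.2% of all tested genes.

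Lss encodes lanosterol synthase, which folds the squalene chain into the first ring sterol, and lies on chromosome 10 from 76531588 to 76557138 (GRCm38, plus strand). It was at 16.8 and 28.0 CPM in R213G and 33.2 and 28.4 CPM in WT (-0.45 ± 0.26, unadjusted p = 0.111). R213G replicate 2 and WT replicate 2 were nearly level, and R213G replicate 1 was far below both. Leaving out R213G replicate 1 gave a log2 fold change of -0.13, and leaving out R213G replicate 2 gave -0.87. Tm7sf2, a sterol C14 reductase gene, was at 5.83 and 10.3 CPM in R213G and 11.4 and 12.6 CPM in WT (-0.57 ± 0.36, unadjusted p = 0.144). R213G replicate 1 was again the lowest library, and the value was -0.22 without it and -1.04 without R213G replicate 2.

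Fdft1, squalene synthase, was at 22.7 and 28.4 CPM in R213G and 29.5 and 32.6 CPM in WT (-0.28 ± 0.21), and -0.13 without R213G replicate 1. Nsdhl, which takes part in removing the C4 methyl groups, was at 20.0 and 27.8 CPM in R213G and 27.3 and 29.5 CPM in WT (-0.25 ± 0.23). Its groups overlapped, and its log2 fold change was -0.03 without R213G replicate 1. Sqle, squalene epoxidase and a slow step of the route, was at 47.1 and 58.9 CPM in R213G and 60.9 and 55.3 CPM in WT (-0.13 ± 0.17). In these 3 genes R213G replicate 1 was the lowest library.

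Msmo1 and Sc5d showed another pattern, with WT replicate 1 as the high library. Msmo1, the C4 methyl oxidase gene on chromosome 8 from 64718139 to 64733792 (GRCm38, minus strand), was at 53.4 and 57.3 CPM in R213G and 72.1 and 60.8 CPM in WT (-0.26 ± 0.15, unadjusted p = 0.120). It was the only one of the 34 genes for which the difference between genotypes exceeded the wider gap between libraries of 1 genotype, on the log2 CPM scale. The gap was wider for the other 33 (97.1%), and for 83.3% of all tested genes. Sc5d, which makes the C5 double bond, was at 34.5 and 34.9 CPM in R213G and 48.5 and 36.6 CPM in WT (-0.29 ± 0.19, unadjusted p = 0.160). Without WT replicate 1 the log2 fold changes were -0.14 for Msmo1 and -0.08 for Sc5d.

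The other 4 genes of the late route had fold changes near 0. Dhcr7, which makes cholesterol from its last precursor in 1 branch of the route, was at 73.3 and 73.1 CPM in R213G and 73.3 and 72.9 CPM in WT (95% interval -0.30 to 0.30). This was the smallest spread of the 34 genes, with the highest library 1.01 times the lowest. Hsd17b7, a sterol 3-ketoreductase gene, was at 18.1 and 18.2 CPM in R213G and 17.9 and 17.3 CPM in WT (0.04 ± 0.24). Ebp was at 78.9 and 61.2 CPM in R213G and 63.0 and 69.7 CPM in WT (0.08 ± 0.16). Cyp51, the lanosterol demethylase gene, was at 93.8 and 83.2 CPM in R213G and 104 and 72.4 CPM in WT (0.01 ± 0.18), so that the WT libraries were the outer values on both sides.

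**Figure D3:**
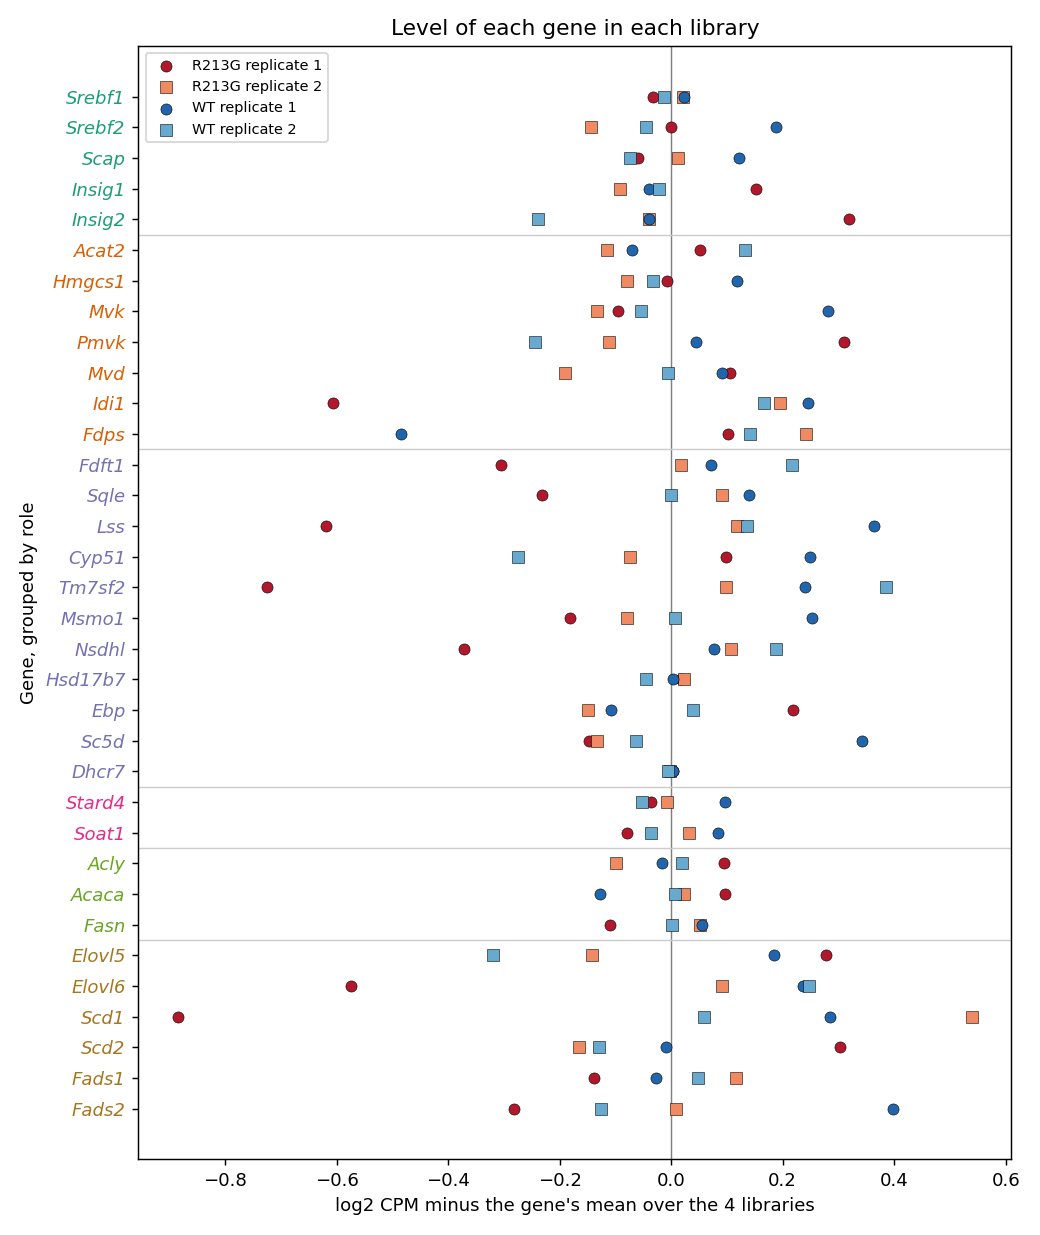
Log2 CPM of each gene in each library, as the difference from the mean of that gene over the 4 libraries, grouped by role with gene names in 1 colour per role. R213G replicate 1 (dark red circles) is far to the left for Lss, Tm7sf2, Nsdhl, Elovl6, Scd1 and Idi1, and WT replicate 1 (dark blue circles) to the right for Msmo1, Sc5d, Mvk and Fads2.

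The 2 genes of sterol transport and esterification had fold changes near 0. Soat1 was at 551 and 595 CPM in R213G and 617 and 567 CPM in WT (-0.05 ± 0.11, 95% interval -0.30 to 0.20). Stard4, a cytosolic sterol carrier, was at 40.0 and 40.8 CPM in R213G and 43.8 and 39.5 CPM in WT (-0.04 ± 0.17). The groups overlapped for both.

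The 3 genes of fatty acid synthesis varied little. Acly was at 377 and 329 CPM in R213G and 349 and 358 CPM in WT, with the R213G libraries on both sides of WT (95% interval -0.26 to 0.26). Fasn was at 146 and 163 CPM in R213G and 164 and 158 CPM in WT (-0.05 ± 0.12, 95% interval -0.33 to 0.22). Acaca, whose carboxylase makes malonyl-CoA for Fasn, was at 28.4 and 27.0 CPM in R213G and 24.3 and 26.7 CPM in WT (0.12 ± 0.20). Its groups did not overlap, but R213G replicate 2 and WT replicate 2 differed by less than the WT libraries did.

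Among the elongases and desaturases, Elovl6 was at 7.85 and 12.4 CPM in R213G and 13.8 and 13.9 CPM in WT (-0.44 ± 0.32, unadjusted p = 0.196). R213G replicate 1 was the low library, and the log2 fold change was -0.15 without it and -0.82 without R213G replicate 2. Scd1 was the most variable of the 34 genes, at 2.64 and 7.07 CPM in R213G and 5.93 and 5.07 CPM in WT (-0.17 ± 0.52). The R213G libraries were its lowest and its highest, 2.68-fold apart. Without R213G replicate 1 its log2 fold change was 0.36, and without R213G replicate 2 it was -1.06.

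Scd2 ran the other way, at 156 and 113 CPM in R213G and 126 and 116 CPM in WT (0.16 ± 0.16), with R213G replicate 1 as the high library. Leaving out R213G replicate 1 gave -0.10 on the log2 scale, and leaving out R213G replicate 2 gave 0.37. Fads1 was at 111 and 132 CPM in R213G and 119.7 and 126 CPM in WT (-0.02 ± 0.14). Fads2 was at 10.2 and 12.4 CPM in R213G and 16.3 and 11.3 CPM in WT (-0.28 ± 0.31), with WT replicate 1 as the high library. The log2 fold change of Fads2 was -0.0032 with that library left out and -0.53 with WT replicate 2 left out. The groups overlapped for Scd2, Fads1 and Fads2.

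Elovl5 was at 102 and 76.6 CPM in R213G and 95.9 and 67.6 CPM in WT (0.13 ± 0.20). Replicate 1 was the higher library in both genotypes, by more than the genotypes differed. On the log2 CPM scale the same held for Srebf2, Pmvk, Mvd and Cyp51, and by very small amounts for Dhcr7. Replicate 1 deviated in the same direction in both genotypes for 16 of the 34 genes. The summed level of the 8 dendritic cell markers was also higher in replicate 1 of both genotypes, at 415 and 290.0 CPM in R213G and 427 and 262 CPM in WT, and all 8 were tested with 0 passing. Irf8 made up much of these sums without following them, at 220.0 and 234 CPM in R213G and 237 and 215 CPM in WT. Xcr1 was at 0 in replicate 1 of both genotypes and Clec9a in R213G replicate 1. The sum of the 5 tested type 2 epithelial markers was likewise higher in replicate 1, at 430.4 and 315.5 CPM in R213G and 403 and 340.5 CPM in WT. So was that of Plin2 and Gsn, at 1609 and 1526 CPM in R213G and 1807 and 1373 CPM in WT. The other marker lists did not show this in both genotypes. The part of any of these lists in the level of Elovl5 was not tested.

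Which library was the extreme one was counted over all 34 genes. WT replicate 1 was the highest library for 15 (44.1%), beside 24.8% of all tested genes, and the lowest for 2 (5.88%), beside 24.4%. R213G replicate 1 was the lowest for 15 (44.1%), beside 36.5% of all tested genes, and the highest for 10 (29.4%), beside 31.2%. The mean log2 CPM of the 34 genes was 5.26 in R213G replicate 1 and 5.45 in WT replicate 1, and 5.35 in replicate 2 of both genotypes. Over all tested genes the mean log2 CPM was also lowest in R213G replicate 1, at 3.62, and the other libraries stood at 3.79 (R213G), 3.76 and 3.81 (WT). That library had the fewest detected genes, and the part of this in the 34 genes was not tested. WT replicate 1 and R213G replicate 1 were also the extreme libraries of some marker lists. WT replicate 1 was the lowest library for all 8 cell cycle genes, whose fold changes were all positive, with Mcm2 and Mcm3 at an unadjusted p under 0.05, and their summed level was 834 and 1096 CPM in R213G and 606 and 1007 CPM in WT. It was the highest for 7 of 12 recruited macrophage markers, and R213G replicate 1 the lowest for 7 of 12. The part of these in the 34 genes was not tested. As a share of all counts, the 34 genes took 0.281% and 0.266% in R213G and 0.287% and 0.271% in WT.

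**Figure D4:**
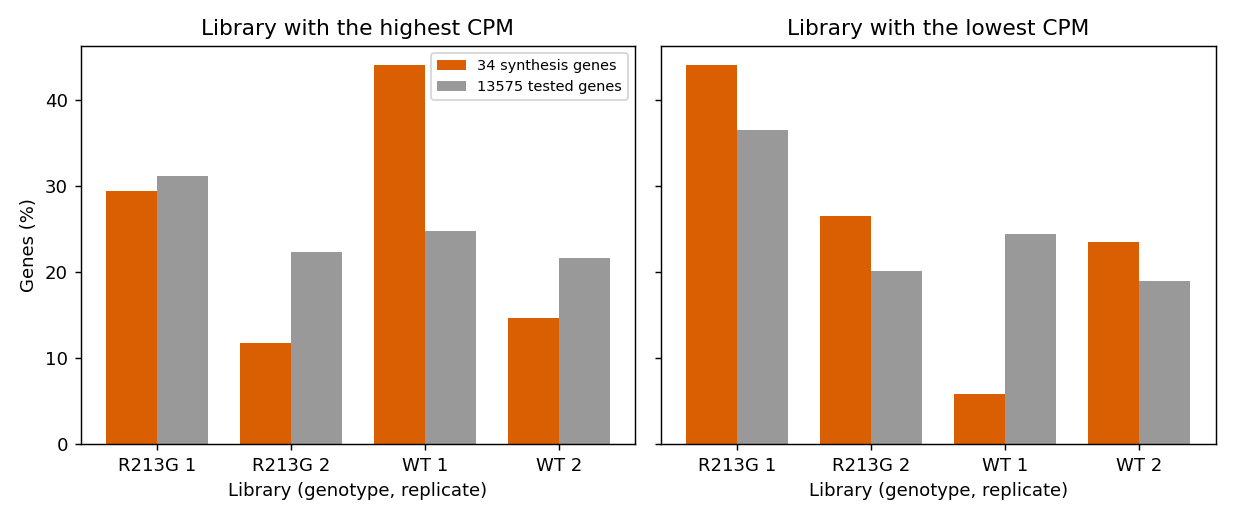
Share of genes (%) for which each library had the highest (left) or the lowest (right) CPM, for the 34 synthesis genes and for all 13575 tested genes. WT replicate 1 was the highest library for 44.1% of the 34 genes, and R213G replicate 1 the lowest for 44.1%.

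With a single library left out, 18 of the 34 fold changes took the other sign in at least 1 of 4 cases, and 16 kept their sign in all 4. Leaving out R213G replicate 1 changed 12 signs, and leaving out WT replicate 2, WT replicate 1 or R213G replicate 2 changed 6, 4 and 3. Without R213G replicate 2, Lss, Tm7sf2, Elovl6 and Scd2 were at an unadjusted p under 0.05 (4 of 34), where 13.5% of all genes tested in that setting were, and the smallest adjusted p of the 34 was 0.287 (edgeR). Of the genes that kept their sign, Hmgcs1 ran from -0.16 to -0.011 and Acaca from 0.053 to 0.19 over the 4 cases. The median of the 34 genes was -0.123 without WT replicate 2 and -0.015 without WT replicate 1.

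**Figure D5:**
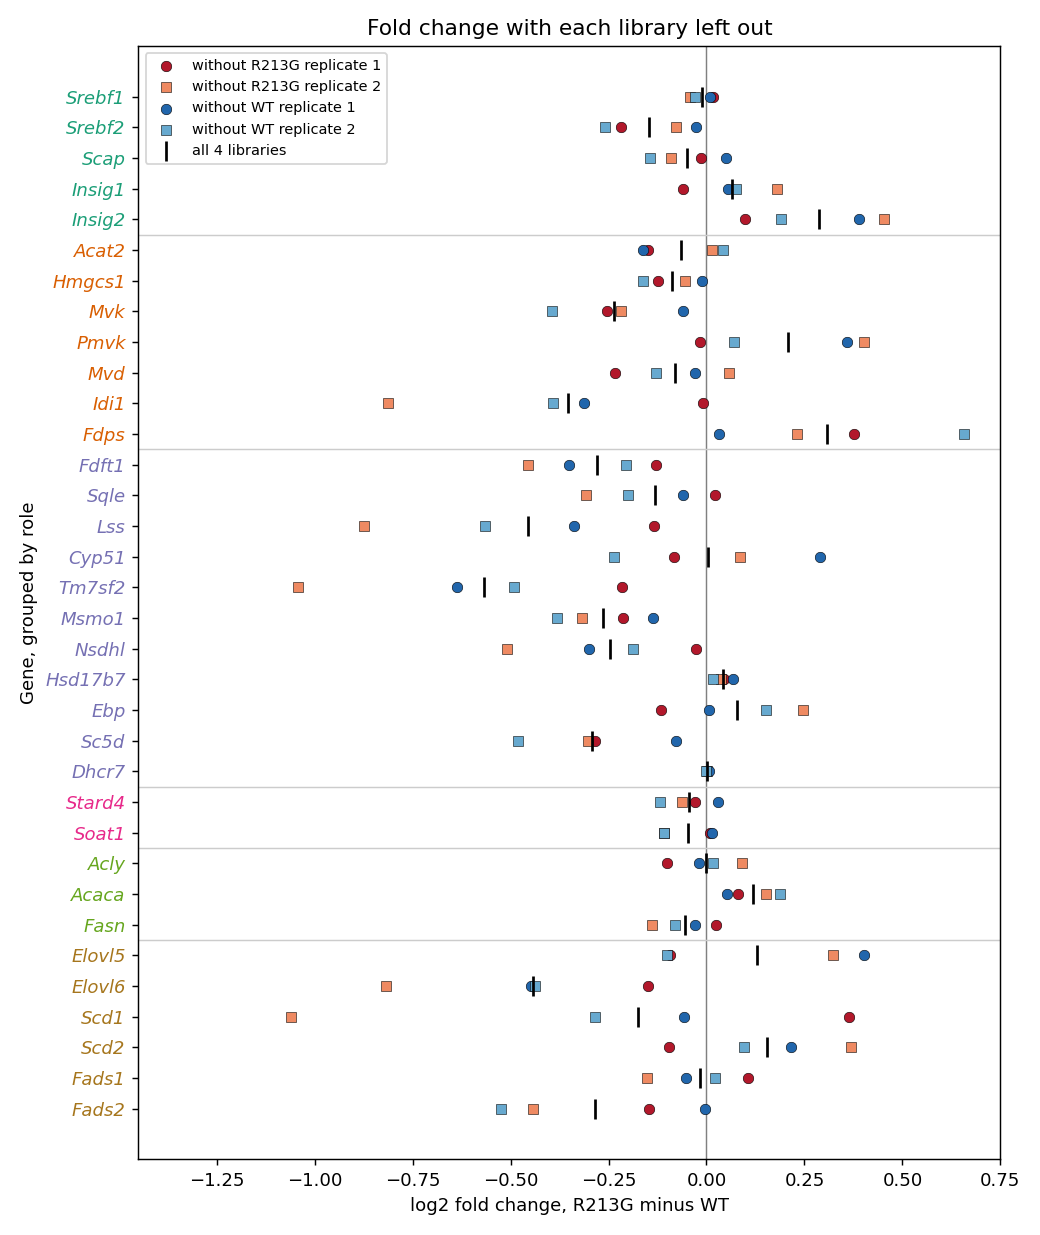
Log2 fold change of each gene, R213G minus WT, from all 4 libraries (black ticks) and with each library left out (coloured points). Tm7sf2, Lss, Elovl6, Idi1 and Scd1 spread widest, lowest with R213G replicate 2 left out and highest with R213G replicate 1 left out; the points of Dhcr7 and Hsd17b7 nearly coincide.

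Other genes of the pathway were taken from 3 lists. Over all tested genes, 49.1% of fold changes were positive. Of 16 listed genes, 15 of them tested, of SREBP processing, sterol-regulated degradation and related sterol targets, 0 passed, 5 fold changes were positive and the median was -0.07. Aup1, of the degradation machinery, was at 181 and 167 CPM in R213G and 188 and 176 CPM in WT (-0.07 ± 0.12), and its groups overlapped. Erlin1, of the complex that binds INSIG, had the smallest p of the 3 lists, at 61.3 and 49.7 CPM in R213G and 40.2 and 46.3 CPM in WT (0.36 ± 0.17, unadjusted p = 0.0689), and its groups did not overlap.

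Of 11 listed and tested genes of the liver X receptor (LXR) side, which answers sterol excess, 0 passed, 3 were positive and the median was -0.05. Nr1h2, one of the receptors, was at 92.1 and 92.3 CPM in R213G and 113 and 98.7 CPM in WT (-0.20 ± 0.13), without overlap. The cholesterol exporter gene Abcg1 had a log2 fold change of 0.13 ± 0.13. The lysosomal genes Npc2 and Lipa, which free and hand on cholesterol from ingested lipid, were at -0.05 ± 0.11 and -0.06 ± 0.14.

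Of 24 listed genes of fatty acid supply, activation and other chain steps, 21 were tested and 0 passed. Fold changes were positive for 18 (85.7%), beside 49.1% of all tested genes, and the median was 0.11. Pgd, an NADPH-making enzyme of the pentose phosphate pathway, was at 538 and 543 CPM in R213G and 507 and 540.4 CPM in WT (0.04 ± 0.11). Acsl5, which activates fatty acids, was at 212 and 190.5 CPM in R213G and 187 and 175 CPM in WT (0.15 ± 0.12, unadjusted p = 0.238). Tecr, the last reductase of chain elongation, was at 133 and 123 CPM in R213G and 119 and 108 CPM in WT (0.17 ± 0.13, unadjusted p = 0.207). The groups did not overlap for Acsl5 and Tecr. These genes were not tested as a group.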

How the data were processed

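The values are read counts per gene symbol, deposited by the authors before any normalization. The submitters' processing notes name STAR 2.5.1b, featureCounts with Subread 1.4.4 and the build GRCm38; the libraries were directional, per the labels. No source used here gives the annotation, the strand setting or the handling of multi-mapping reads. Each column carries the short name that the labels give its sample. Total counts were 33488569 to 35176210 per library, and no pair of libraries agreed within sampling noise (the lowest chi-square per degree of freedom was 16.6). The test was edgeR 4.0.16 quasi-likelihood (newer form, robust, TMM, filterByExpr, 13575 genes), R213G against WT without covariates, with Benjamini-Hochberg adjustment over all tested genes and a threshold of 0.05, in R 4.3.3. SE is the log2 fold change divided by the square root of F, and 95% intervals use the degrees of freedom of that test. The common dispersion was 0.14, with 2 residual degrees of freedom. With 2 libraries a side, the smallest p of an exact permutation test (two-sided) is 0.333, and none was used. Exon lengths, positions and 50-base stretches came from GENCODE vM21 (GRCm38), promoters from RefSeq (GRCm38.p6). Other settings tried were leaving out each library, a replicate block, 2 other scalings (DESeq2's and upper quartile), 2 other filters (none, or 5 CPM on average), the older edgeR form, DESeq2 1.42.0 and limma voom 3.58.1. The fit was tested on data simulated at a dispersion of 0.05, below the 0.14 of these libraries. That test therefore does not show which changes could be found here. The members, roles and lists were chosen with earlier results of these data known. By rule, every member is named, with the 2 highest and the 2 of smallest p of each related list, some of which are not reported here; the marker genes, and the genes singled out by a library, were chosen after their values were seen.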

Additional observations from a re-analysis of the deposited data

How the results depend on the processing

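Under every scaling, filter and test run, 0 of the 34 genes passed and 11 fold changes were positive; of 406 recomputed fold changes, 380 kept their sign and side of the threshold and 26 took the other sign. Of these, 25 came from leaving out 1 library and 1 was Acly at a mean of at least 5 CPM (0.0030), where 32 of the 34 genes were tested. DESeq2 called 1 gene of the whole table, Clrn2. With each library left out in turn, 0 to 2 genes of the table were called (Lars2 and Gm42418 without R213G replicate 2), 0 to 4 of the 34 stood at an unadjusted p under 0.05, and their median ran from -0.123 to -0.015; the lone library of a genotype is then assumed to vary like the others. The ranges over these 4 settings for genes that took the other sign were, as log2 fold changes, Acat2 -0.16 to 0.041; Acly -0.10 to 0.090; Cyp51 -0.23 to 0.29; Dhcr7 -0.0023 to 0.0069; Ebp -0.12 to 0.25; Elovl5 -0.10 to 0.40. For the next 6 they were Fads1 -0.15 to 0.11; Fasn -0.14 to 0.024; Insig1 -0.060 to 0.18; Mvd -0.23 to 0.058; Pmvk -0.017 to 0.40; Scap -0.15 to 0.050, and for the last 6 Scd1 -1.06 to 0.36; Scd2 -0.10 to 0.37; Soat1 -0.11 to 0.014; Sqle -0.31 to 0.022; Srebf1 -0.041 to 0.018; Stard4 -0.12 to 0.031. The cause was not tested. The labels do not say whether a replicate number marks a batch. Deviations of replicate 1 correlated between the genotypes at 0.0926 over all tested genes and at 0.115 over the 34. With the replicate number as a block, 0 genes were called in the table and among the 34, whose median was -0.052. Some genes, such as Elovl5, were higher in replicate 1 of both genotypes, and whether the replicate number plays a part was not tested. Idi1, Fdps and Scd1, the genes of fewest counts, had the widest intervals.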
